A study of Mus musculus with 28 samples.

Results

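Cultures of O9-1 cells, a mouse cranial neural crest line, that had been placed in cartilage-forming conditions were compared with cultures of the same line placed in smooth muscle conditions, both in 21% O2. The comparison took the 4 chondrocyte and the 4 smooth muscle libraries labelled normoxic, 8 of the 28 libraries of the series, and was described across all genes with a test on the raw counts. The chondrocyte cultures spent 3 days in osteogenic medium with 10% serum, beta-glycerophosphate, 0.1 µM dexamethasone and 100 ng/ml BMP-2. They were then kept for 7 days as micromass spots on matrigel-coated plastic with 5% serum, an insulin, transferrin and selenium supplement, 0.1 µM dexamethasone, 10 ng/ml TGF-beta3 and 50 ng/ml BMP-2. The smooth muscle cultures spent 3 days in DMEM with 10% serum and no added factor named in the labels. Time in culture, medium, added factors and the micromass format therefore differ together between the groups, and their parts in any difference cannot be told apart. The rest of the series holds proliferating and osteoblast cultures at 21% O2 and all 4 kinds of culture at 0.5% O2. Of these, only the proliferating and osteoblast libraries at 21% O2, 4 each, are used, for levels. The osteoblast cultures spent 10 days in osteogenic medium with 10% serum, 0.1 µM dexamethasone and 100 ng/ml BMP-2. Proliferating cultures were kept with 15% serum. Osteogenic medium, dexamethasone and BMP-2 are thus shared by the osteoblast and chondrocyte cultures. All groups come from 1 line, and the labels do not say that replicates are separate cultures, so p-values measure the spread between these samples, which may be technical.

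Cranial neural crest cells give rise to the cartilage, bone and much of the vascular smooth muscle of the face. In cartilage, SOX9 acts with SOX5 and SOX6 on genes of the matrix such as Col2a1 and Acan, and growth plate chondrocytes later become hypertrophic, with collagen X and several genes that osteoblasts also use. In smooth muscle, serum response factor and its partner myocardin act on contractile genes such as Acta2, Tagln, Cnn1 and Myh11.

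The 4 chondrocyte libraries held 25998284 to 32378123 counts and the 4 smooth muscle libraries 25611647 to 28923765. Type I collagen (Col1a1 and Col1a2) took 6.57% to 7.66% of counts in the chondrocyte libraries and 1.3% to 1.78% in the smooth muscle libraries. Levels are given as CPM, the counts of a gene per 1000000 counts, scaled for such differences in composition by trimmed means of M values (TMM). Of 14619 genes that passed the filter on low counts, 9902 (67.7%) were called at an edgeR adjusted p under 0.05. Of these, 4831 (33.0% of genes tested) were higher in chondrocyte cultures and 5071 (34.7%) were higher in smooth muscle cultures. A difference of at least 1 on the log2 scale was reached by 3910 genes (26.7%), 1732 higher in chondrocyte (11.8%) and 2178 higher in smooth muscle cultures (14.9%). At 3 log2 units or more, 455 and 456 genes remained. The libraries of the groups did not overlap for 8900 of the called genes (89.9%) and for 62.2% of all genes tested. The median log2 fold change of all genes tested was -0.02. With library size alone as the scale, that median moved to -0.39 and 25.6% of called genes were higher in chondrocyte cultures, against 48.8% with TMM. Smaller differences below depend on that choice, and each gene or list median whose sign turned with it is named where it is given.

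**Figure D1:**
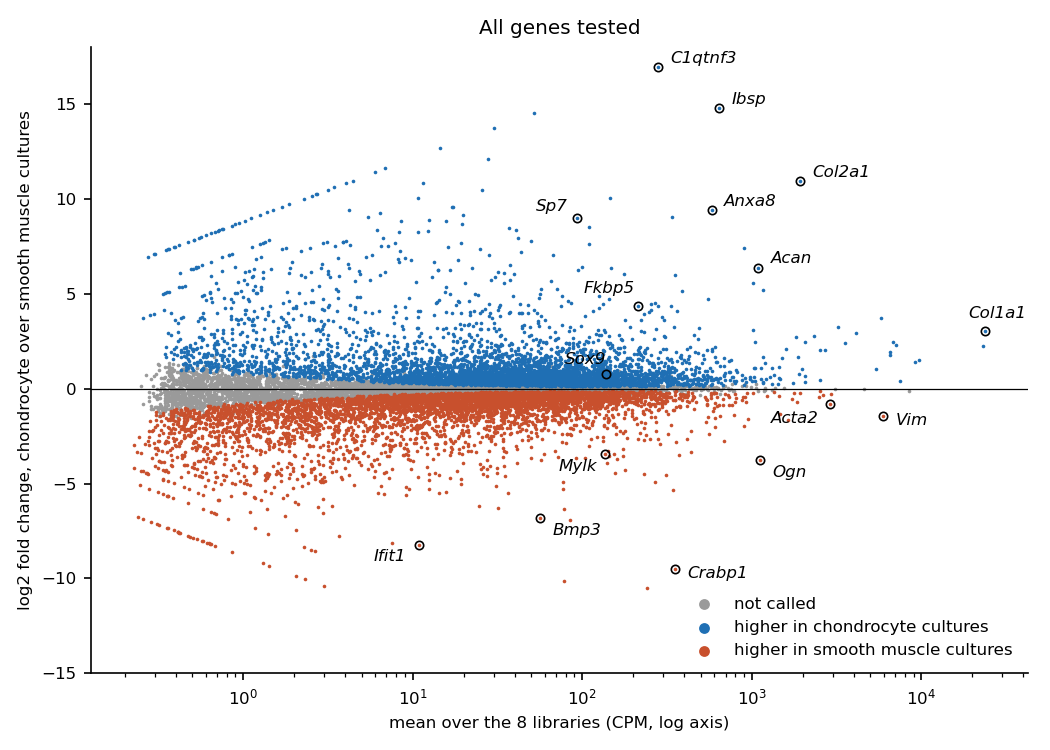
Log2 fold change (chondrocyte over smooth muscle cultures, vertical) against the mean over the 8 libraries in CPM (horizontal, log axis) for the 14619 genes tested; blue points were called higher in chondrocyte cultures, orange points higher in smooth muscle cultures, and circles mark the genes labelled by symbol. Ibsp and Col2a1 lie far above the zero line at 14.80 and 10.92, and Crabp1 far below it at -9.51. C1qtnf3 and the points on straight lines at the left have 0 or very few reads in 1 group, and their height depends on a prior count.

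Genes of the cartilage matrix were higher in the chondrocyte cultures, several of them by more than 6 log2 units. Col2a1, the main fibrillar collagen of cartilage (mm10 chromosome 15, 97975602 to 98004695, minus strand), stood at 1151, 5592, 6401 and 2231 CPM in chondrocyte replicates 1 to 4 and at 1.97, 1.69, 1.90 and 2.35 CPM in the smooth muscle libraries. The log2 fold change was 10.92 ± 0.86 (SE) with an edgeR adjusted p of 3.05e-05. All 4 chondrocyte libraries were far above the smooth muscle libraries, and replicates 2 and 3 held several times the level of replicate 1. Aggrecan (Acan), the large proteoglycan that holds water in cartilage, had 1771, 2787, 2489 and 1575 CPM against 25.7, 22.7, 26.0 and 29.3 CPM, a difference of 6.38 ± 0.22 with an edgeR adjusted p of 4.54e-09. The link protein Hapln1, which ties aggrecan to hyaluronan, stood at 333, 930.1, 909 and 542 CPM against 1.45, 1.36, 0.754 and 1.49 CPM (9.06 ± 0.53). Neither gene overlapped between the groups, and in both replicates 2 and 3 were again the higher chondrocyte libraries. Col11a2, a minor cartilage collagen, differed by 7.61 ± 0.94, with chondrocyte libraries at 76.0, 365, 358 and 72.0 CPM. Col11a1, its partner chain that many mesenchymal cells also make, was already at 1044 to 1221 CPM in smooth muscle cultures and at 4784 to 6583 CPM in chondrocyte cultures. Col9a1, which coats collagen II fibrils, had 11.1, 60.8, 72.7 and 11 CPM in chondrocyte libraries and 11 reads in all smooth muscle libraries together. Its fitted difference of 8.69 ± 1.33 moved to 9.33 without smooth muscle replicate 2 and its edgeR adjusted p was 0.00104, but limma-voom gave an adjusted p of 0.132.

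Of the 20 listed cartilage matrix genes, 12 passed the filter and 12 were called higher in chondrocyte cultures, against 33.0% of all genes tested, with a median log2 fold change of 4.72. Members that are low in both groups could not enter that count. Setting groups with 0 reads at a floor of 3 reads left the list medians as they were, but it could hardly move them. This list had 0 tested members with a group at 0 reads. The smooth muscle regulator, Wnt, interferon and epithelial lists had 1 each. Members with a few reads in 1 group were not changed by it. The 8 listed cartilage matrix genes that did not pass the filter were Matn1, Cnmd, Epyc, Chad, Snorc, Ucma, Cytl1 and Scrg1. With no filter, 14 of the 20 were higher, Snorc and Scrg1 among them, and 1, Matn1, was lower in chondrocyte cultures (21.4% and 22.6% of all genes). DESeq2 also called Scrg1 higher and Matn1 lower. Matn1 (matrilin-1) and Cnmd (chondromodulin), both defining markers of mature hyaline cartilage, had 1 read each over the 4 chondrocyte libraries, and Matn1 had 22 in the smooth muscle libraries. In the chondrocyte libraries Epyc had 1 read as well, Ucma 2, Chad 8 and Snorc 9, so that these markers were at or near 0 in chondrocyte cultures while Col2a1 and Acan were high. Scrg1 was the best covered of the 8, with 71 reads in chondrocyte and 0 in smooth muscle libraries.

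**Figure D2:**
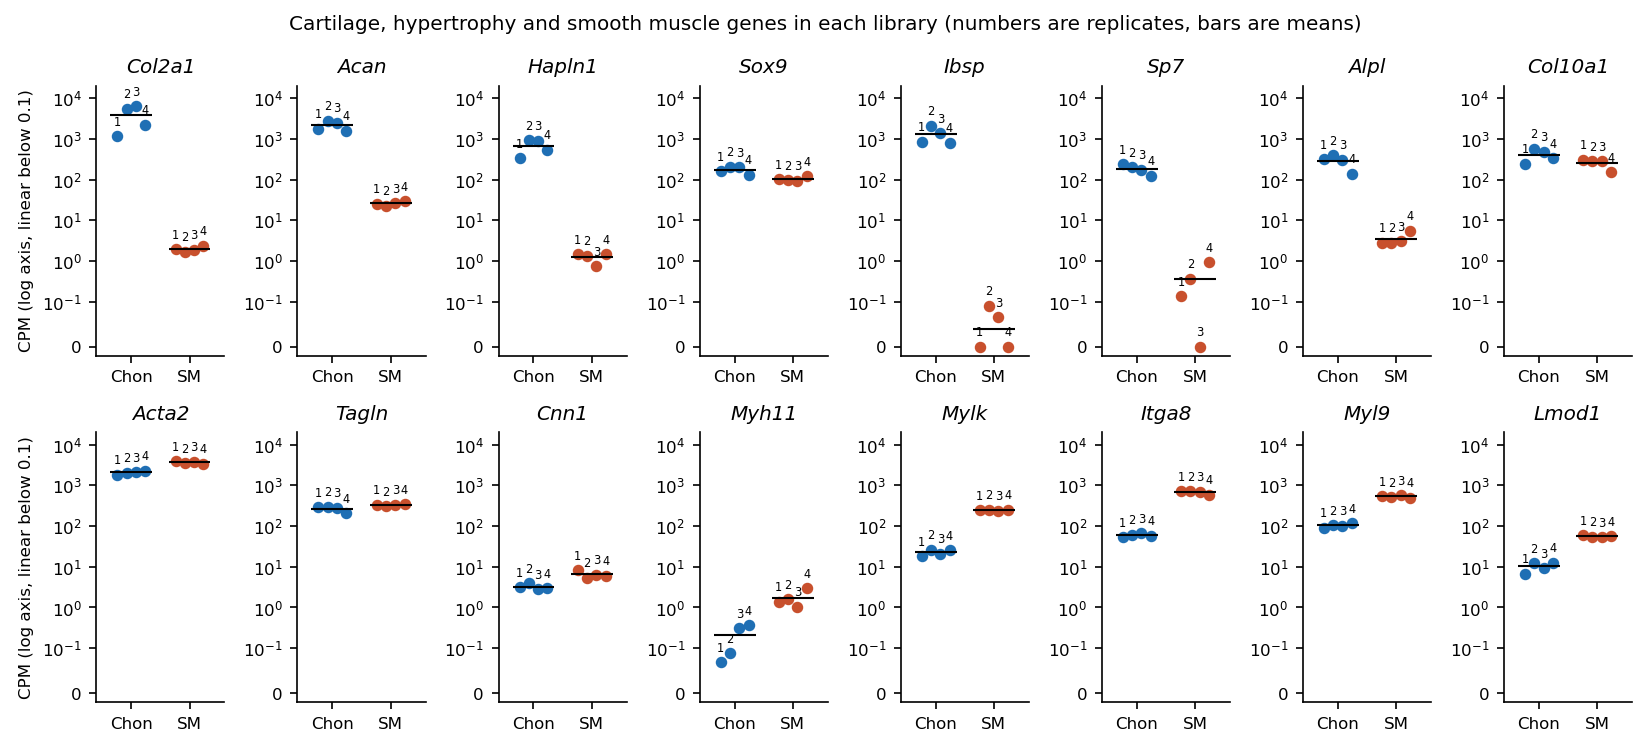
CPM of 16 genes in each of the 8 libraries (vertical log axis, linear below 0.1); Chon are chondrocyte and SM smooth muscle cultures, the small numbers are replicates and the bars are group means. The cartilage and bone genes of the upper row are separated except Col10a1, while Tagln and Cnn1 in the lower row differ by far less than Mylk or Itga8.

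Transcription factors that act on the chondrocyte fate differed in both directions. Sox9, the master factor of cartilage, stood at 163, 205, 199.6 and 131 CPM in chondrocyte and 101, 96.6, 93.2 and 121 CPM in smooth muscle libraries, without overlap. The log2 fold change was 0.76 ± 0.14 with an edgeR adjusted p of 7.46e-04, and with all 16 libraries at 21% O2 sharing the dispersion the adjusted p was 0.077. On the scale of the 16 libraries, proliferating cultures already held 104 CPM of Sox9. Sox5, its cofactor, was 2.05 ± 0.12 higher, at 18.2 to 25.8 against 5.07 to 5.87 CPM. Sox6, the other cofactor, was much lower in absolute terms, at 1.37, 2.52, 3.29 and 1.04 CPM in chondrocyte libraries and 5 reads in all in the smooth muscle libraries (5.51 ± 0.63, or 6.30 without smooth muscle replicate 4). Nkx3-2, a repressor that keeps chondrocytes immature, and Sox8, a close relative of Sox9, were likewise at 0.602 to 2.28 and 1.36 to 2.21 CPM in chondrocyte libraries with 1 and 6 reads in the smooth muscle libraries (7.04 ± 0.78, or 8.50 without smooth muscle replicate 2, and 5.02 ± 0.59, or 6.07 without smooth muscle replicate 1). The fold changes of all 3 rest on those few reads. In the other direction, Arid5b, a SOX9 cofactor, stood at 59.6 to 67.4 against 234 to 247 CPM and fell by 1.91 log2 units in chondrocyte cultures, and Shox2, a limb and face homeobox gene, at 70.0 to 75.4 against 138 to 151 CPM fell by 0.97. Of 13 listed chondrogenic factors tested, 6 were higher in chondrocyte and 5 in smooth muscle cultures (33.0% and 34.7% of all genes), and the median of 0.31 turned to -0.06 with library size alone as the scale. With at least 10 counts in every library, 10 were tested, 3 were higher and 5 lower (33.5% and 35.4% of all genes), with a median of -0.07.

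Genes of hypertrophic cartilage and bone were among the widest differences in the chondrocyte cultures. Ibsp, the bone sialoprotein that nucleates mineral (chromosome 5, 104299171 to 104311469, plus strand), was at 849, 2095, 1394 and 809 CPM in chondrocyte libraries, and the 4 smooth muscle libraries held 5 reads together. Its log2 fold change of 14.80 ± 0.72 (edgeR adjusted p = 1.38e-06) rests on those 5 reads, moving to 15.55 without smooth muscle replicate 2. Sp7 (osterix), the factor that commits cells to bone, had 243, 202, 177 and 124 CPM against 0.138, 0.363, 0 and 0.926 CPM, a difference of 9.01 ± 0.51 that moved to 10.04 without smooth muscle replicate 4. Alpl, the phosphatase that releases phosphate for mineral, had 322, 396, 306 and 139 CPM against 2.79, 2.81, 3.05 and 5.53 CPM (6.36 ± 0.46). Pth1r, the parathyroid hormone receptor of prehypertrophic cells, stood at 113 to 263 against 1.62 to 2.88 CPM. Fgfr3, the receptor that restrains growth plate division, stood at 59.8 to 157 against 2.26 to 3.44 CPM. None of these 5 genes overlapped between the groups.

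Col10a1, the collagen that defines hypertrophy (chromosome 10, 34389981 to 34397085, plus strand), did not follow them. It was at 246, 571, 490.5 and 340.2 CPM in chondrocyte and 307, 283, 282 and 153 CPM in smooth muscle libraries. The groups overlapped, and the difference of 0.68 ± 0.33 was not called (edgeR adjusted p = 0.11). Without chondrocyte replicate 1 the gene was called, at 0.89 with an adjusted p of 0.041. On the scale of the 16 libraries its mean was 0.0816 CPM in proliferating and 4.14 CPM in osteoblast cultures. Mmp13, the collagenase of hypertrophic cartilage, was lower in chondrocyte cultures, at 2.46, 5.31, 6.62 and 4.21 against 18.3, 17.9, 19.0 and 4.67 CPM, with smooth muscle replicate 4 inside the chondrocyte range. Its difference of -1.69 ± 0.49 had an edgeR adjusted p of 0.0162 and was no longer called without chondrocyte replicate 1 (0.052) or replicate 4 (0.064), nor by limma-voom (0.080). Ihh, the signal of prehypertrophic cells, had 3 reads in each group. Runx2, the factor of hypertrophy and bone, was at 88.2 to 102 against 72.3 to 83.9 CPM, and its difference of 0.31 ± 0.07 turned to -0.05 with library size alone. Of 22 hypertrophy genes listed, 19 were tested, 14 were higher in chondrocyte cultures and 2 in smooth muscle cultures (33.0% and 34.7% of all genes), with a median of 2.28. On the scale of library size alone, 12 were higher and 4 lower (18.8% and 54.8%). Of 24 osteoblast genes listed, 19 were tested, 16 higher and 2 lower in chondrocyte cultures (33.0% and 34.7% of all genes), with a median of 3.04. With at least 10 counts in every library, 9 of 12 were higher and 2 lower (33.5% and 35.4%), with a median of 1.37. The osteocalcin genes Bglap and Bglap2, near-identical copies whose separate values are uncertain, stayed under the filter at means of 0.676 and 1.29 CPM in chondrocyte libraries. With no filter both were called higher in chondrocyte cultures (3.93 and 8.17), on 5 and 0 reads in smooth muscle libraries. DESeq2 and some of the fits with 1 library left out called them higher as well. Dmp1, which osteocytes make, was 3.17 ± 0.15 higher at 41.7 to 56.2 against 4.48 to 6.97 CPM, and Tnfrsf11b, the decoy receptor that limits bone resorption, fell by 0.91 log2 units.

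The smooth muscle cultures held more transcript of most contractile genes, but the size ran from small to large. Acta2, the smooth muscle actin (chromosome 19, 34241090 to 34255590, minus strand), was at 3885, 3539, 3859.9 and 3418 CPM in smooth muscle libraries and at 1823, 2075, 2122 and 2311 CPM in chondrocyte libraries. The groups did not overlap, and the log2 fold change was -0.82 ± 0.08 with an edgeR adjusted p of 6.46e-07. Its mean in proliferating cultures was 45.9 CPM on the scale of the 16 libraries. Tagln (transgelin) was at 338, 307, 335 and 343 CPM in smooth muscle and 289.6, 299.6, 282 and 209.7 CPM in chondrocyte libraries, a difference of -0.29 ± 0.10 (edgeR adjusted p = 0.0162) that was not called when 16 libraries shared the dispersion (0.277). Genes further from zero were Mylk, the kinase that starts contraction, at 237 to 255 against 17.9 to 26.2 CPM (-3.46 ± 0.10), and Itga8, an integrin of contractile mesenchyme, at 594 to 715 against 54.0 to 66.6 CPM (-3.51 ± 0.09). Synpo2, an actin-bundling protein, differed by -3.32 ± 0.18 and Lmod1 (leiomodin) by -2.46 ± 0.16. Myl9, the regulatory myosin light chain, was at 499 to 580.2 CPM in smooth muscle and 91.5 to 116 CPM in chondrocyte libraries (-2.37 ± 0.08, edgeR adjusted p = 5.87e-12).

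Markers of fully contractile cells were low in the smooth muscle cultures themselves. Myh11, the smooth muscle myosin heavy chain, was at 1.38, 1.57, 1.05 and 3.01 CPM there and had 21 reads over the chondrocyte libraries (-3.06 ± 0.51). Cnn1 (calponin) was at 8.28, 5.39, 6.42 and 6.09 CPM against 3.15, 3.98, 2.83 and 3.01 CPM (-1.01 ± 0.18). Myocd, which encodes myocardin, was at 0.241, 0.212, 0.262 and 0.0993 CPM in smooth muscle libraries and had 6 reads in the chondrocyte libraries, too few to pass the filter, while osteoblast cultures held 5.74 CPM. When 16 libraries shared the dispersion, Myocd was tested and called higher in smooth muscle cultures (-1.69, edgeR adjusted p = 0.038), on 6 against 25 reads. Des, Kcnmb1 and Pln did not pass the filter, with Kcnmb1 and Pln at 0 reads in all 8 libraries. Of 18 contractile genes tested, 15 were higher in smooth muscle cultures against 34.7% of all genes, none was higher in chondrocyte cultures, and the median was -0.94. The exceptions were Smtn, Hspb6 and Actg2, the enteric actin, which stood at 26.8, 26.3, 26.0 and 10.1 CPM in chondrocyte and 19.4, 14.8, 17.3 and 19.0 CPM in smooth muscle libraries. Without chondrocyte replicate 4, Actg2 was called higher in chondrocyte cultures (0.60) and Smtn lower (-0.27). With library size alone Actg2 turned to -0.02, and Smtn (-0.57) and Hspb6 (-0.59) were called lower. Smtn was also called lower with at least 10 counts in every library (adjusted p = 0.049) and Hspb6 by limma-voom (0.048).

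Genes around the contractile program were split. Srf was lower in chondrocyte cultures, at 51.7 to 70.0 against 74.7 to 85.5 CPM (-0.46 ± 0.09). Npnt (nephronectin), the ligand of the Itga8 integrin, was lower as well, at 12.8 to 34.3 against 271 to 349 CPM (-3.69 ± 0.29). Klf4, a factor that represses contractile genes, was 2.05 ± 0.10 higher in chondrocyte cultures, and Jag1, a Notch ligand, 1.93 ± 0.07 higher. Heyl, a Notch target, was read in every chondrocyte library at 0.684 to 1.46 CPM and had 0 reads in smooth muscle libraries, at least 37.5-fold higher against a floor of 3 reads over the group. Of 19 such regulators tested, 10 were higher in chondrocyte and 7 in smooth muscle cultures, beside 33.0% and 34.7% of all genes, with a median of 0.52. Of 20 targets of YAP and TEAD, which read tension, 8 were higher in chondrocyte and 5 in smooth muscle cultures (33.0% and 34.7% of all genes), with a median of 0.02. These became 6 and 12 with library size alone (18.8% and 54.8%), and the median -0.34.

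The binding site of serum response factor, the CArG box, was looked for on both strands of the RefSeq promoter windows (GRCm38.p6, 300 bases, 250 before to 50 after a start). It was found in 2 of 18 windows of the contractile genes tested, in 1.33% of windows of all genes tested and in 1.10% of windows of genes higher in smooth muscle cultures by at least 1 log2 unit. The 2 genes were Vcl and Myl9. The window of Myl9 is shown because it joins a difference of -2.37 to that site, 161 bases before the start, printed in capitals in the 250 bases before the start (chr2:156775214-156775463, plus strand).
Myl9: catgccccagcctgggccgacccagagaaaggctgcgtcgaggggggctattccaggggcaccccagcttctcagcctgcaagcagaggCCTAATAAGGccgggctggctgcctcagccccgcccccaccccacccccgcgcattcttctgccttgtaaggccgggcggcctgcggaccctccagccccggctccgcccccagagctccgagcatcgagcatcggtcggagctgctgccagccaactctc
A match is a description of letters, not of a bound site, and the window holds no distal element.

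Transcripts that respond to the factors named in the chondrocyte media were mostly higher in chondrocyte cultures. Id1 and Id3, direct BMP targets, stood at 58.8 to 71.0 against 24.5 to 32.6 CPM (1.20 ± 0.09) and at 383 to 412 against 189.7 to 236 CPM (0.92 ± 0.07). Hey1, another early BMP target, had 101, 96.8, 79.6 and 54.1 CPM against 0.483, 0.303, 0.360 and 0.199 CPM, a difference of 7.94 ± 0.30 (edgeR adjusted p = 8.15e-09). Nog (noggin), a secreted BMP antagonist, was at 2.77 to 7.26 CPM with 8 reads in smooth muscle libraries, and Smad6, an inner brake of the pathway, was 2.11 ± 0.16 higher. Grem1, another antagonist, went the other way, at 121 to 194 against 486 to 812 CPM (-2.20 ± 0.20). Of 18 BMP targets tested, 14 were higher in chondrocyte and 3 in smooth muscle cultures (33.0% and 34.7% of all genes), with a median of 1.69. With at least 10 counts in every library, 9 of 13 were higher and 3 lower (33.5% and 35.4%), with a median of 0.90.

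Of 19 TGF-beta targets tested, 14 were higher in chondrocyte and 3 in smooth muscle cultures (33.0% and 34.7% of all genes), with a median of 1.81. Itga11, a collagen receptor of fibroblasts, had 617, 742, 759.8 and 676 CPM in chondrocyte and 10.7, 11.2, 9.11 and 13 CPM in smooth muscle libraries (5.99 ± 0.12, edgeR adjusted p = 8.59e-14). Ccn2, the connective tissue growth factor, stood at 1908 to 2658 against 56.4 to 65.1 CPM (5.21 ± 0.11), and Pmepa1, a feedback inhibitor, at 520.0 to 588 against 38.2 to 43.5 CPM. All 3 were tight within groups and far apart between them. Tgfb1 itself was 2.40 ± 0.12 higher.

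Glucocorticoid targets, which dexamethasone induces in many cells, numbered 16 higher and 4 lower of 22 tested (33.0% and 34.7% of all genes), with a median of 1.68. Fkbp5, a chaperone that damps the receptor, had 351, 403, 391 and 485 CPM against 20.5, 19.9, 17.6 and 21.3 CPM (4.36 ± 0.11, edgeR adjusted p = 6.09e-13). Tsc22d3 (GILZ) had 321, 386, 397 and 527 CPM against 54.0, 49.9, 50.9 and 54.6 CPM (2.96 ± 0.13). Zbtb16, a zinc finger factor, was at 21.5, 32.8, 33.6 and 48.9 CPM with 5 reads in the smooth muscle libraries, all in replicate 3, and its fitted difference of 9.56 moved to 12.89 without that library. Hif3a stood at 26.0 to 52.6 CPM with 8 reads. In all 4 genes chondrocyte replicate 1 was lowest and replicate 4 highest. Angptl4 and Cdkn1c, also listed as targets, were lower in chondrocyte cultures, by 4.21 and 2.09 log2 units, and Angptl4 moved to -5.44 without chondrocyte replicate 3.

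The collagen-rich interstitial matrix was higher in the chondrocyte cultures. Col1a1 was at 42099, 46249, 42908 and 38561 CPM against 4987, 4838, 4139 and 6657 CPM (3.04 ± 0.13, edgeR adjusted p = 1.43e-10), and Col5a1, which starts fibrils, at 9669 to 11745 against 697 to 964 CPM (3.75 ± 0.11). Thbs1 (thrombospondin), Fn1 (fibronectin) and Postn (periostin) were 2.32 ± 0.09, 1.54 ± 0.11 and 1.39 ± 0.09 higher, and Eln (elastin) 3.97 ± 0.41. Among the genes lower in chondrocyte cultures were 2 of the 3 listed microfibril-associated proteins, Mfap2 at 7.66 to 8.46 against 101 to 115 CPM (-3.75 ± 0.07) and Mfap4 at 1.81 to 4.77 against 42.0 to 71.9 CPM (-4.21 ± 0.32), while the third, Mfap5, was 2.07 ± 0.26 higher. Of 23 genes tested, 18 were higher and 5 (Mfap2, Mfap4, Fbln1, Fbln5 and Fbn2) lower in chondrocyte cultures (33.0% and 34.7% of all genes), with a median of 2.07. Of the small proteoglycans, Fmod (fibromodulin) was at 1918 to 2089.9 against 33.6 to 63.8 CPM (5.56 ± 0.23) and Ogn (osteoglycin) at 138 to 172 against 2001 to 2229 CPM (-3.76 ± 0.09). Of 12 tested, 6 were higher and 4 lower (33.0% and 34.7% of all genes), with a median of 0.41.

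Enzymes that build and fold matrix proteins were higher as well. Plod2, which hydroxylates collagen telopeptides, stood at 548 to 681 against 28.9 to 33.1 CPM (4.38 ± 0.09), Lox, which crosslinks collagen, at 4964 to 6626 against 578 to 668 CPM (3.25 ± 0.10), and Creb3l1, a factor for collagen secretion, at 409 to 539 against 23.7 to 30.8 CPM (4.13 ± 0.10). Of 28 secretory genes tested, 26 were higher in chondrocyte cultures, none in smooth muscle cultures (33.0% and 34.7% of all genes), and the median was 0.93. With library size alone, 19 were higher and 1 lower, beside 18.8% and 54.8% of all genes on that scale, with a median of 0.56. Papss2, which makes the sulfate donor for proteoglycans, was 4.11 ± 0.12 higher, Has2, the hyaluronan synthase, 3.98 ± 0.13, and Chst3, which sulfates chondroitin, 3.37 ± 0.20. Of 24 genes of proteoglycan synthesis tested, 16 were higher and 3 lower (33.0% and 34.7% of all genes), with a median of 0.58, and with library size alone 12 were higher and 7 lower (18.8% and 54.8%), with a median of 0.21. Of 20 basement membrane genes, 10 were higher and 9 lower (33.0% and 34.7% of all genes), with a median of 0.10. These became 6 and 10 with library size alone (18.8% and 54.8%), and the median -0.26. Lamb3, a laminin chain of epithelia, was at 91.2 to 107 against 0.242 to 0.557 CPM (7.80 ± 0.14) and Lama2, the muscle laminin, 5.27 ± 0.27 higher, while Nid2 (nidogen) fell by 1.92 log2 units. Of 21 matrix proteases and inhibitors, 11 were higher and 9 lower (33.0% and 34.7% of all genes), with a median of 0.26 that turned to -0.10 with library size alone. Adamts12 was at 447 to 539 against 20.4 to 23.4 CPM (4.46 ± 0.09), and Mmp3 (stromelysin) was at 1.56 to 6.69 CPM in smooth muscle libraries with 1 read in the chondrocyte libraries.

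**Figure D3:**
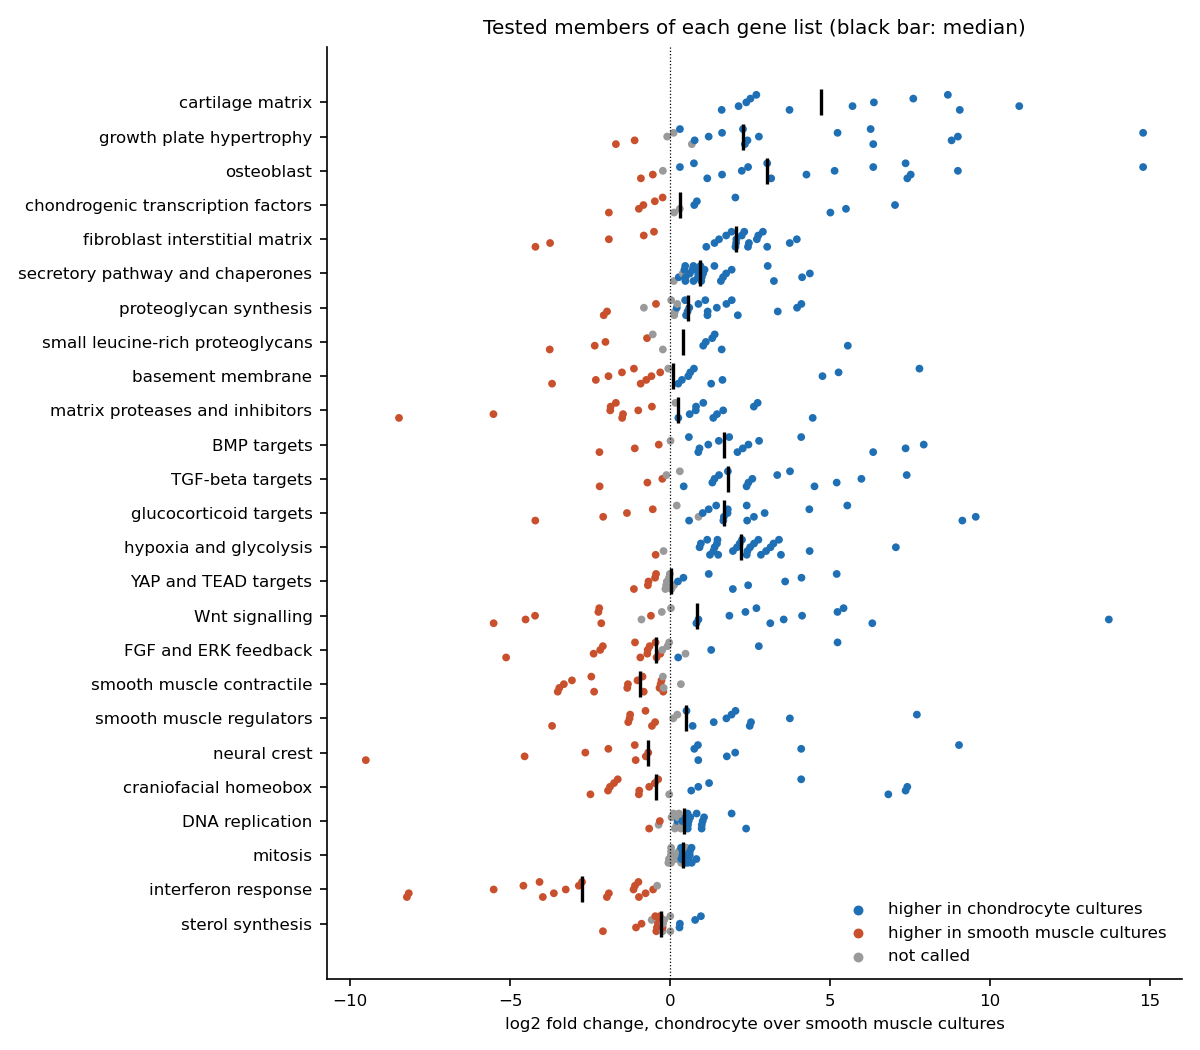
Log2 fold change (chondrocyte over smooth muscle cultures, horizontal) of each member that passed the filter on low counts, by gene list (vertical); colours give the call and the black bars the list medians. Cartilage matrix (median 4.72) and interferon response (median -2.75) lie furthest apart, while mitosis members cluster between zero and 1.

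Genes of the hypoxia response and of glycolysis were higher in chondrocyte cultures although both groups were kept in 21% O2. Of 28 listed, all tested, 26 were higher and 1 lower (33.0% and 34.7% of all genes), with a median of 2.22, against a median of -0.02 for all genes. Vegfa, the angiogenic factor, had 249, 248, 238 and 253 CPM against 46.6, 41.3, 46.2 and 50.1 CPM (2.42 ± 0.07, edgeR adjusted p = 8.22e-13). P4ha2, a collagen prolyl hydroxylase, had 517, 563, 539 and 506 CPM against 26.2, 24.3, 24 and 28.5 CPM (4.37 ± 0.08). Pgk1, a glycolytic kinase, had 835, 1019, 935 and 1192 CPM against 236, 212, 209 and 219 CPM (2.18 ± 0.10), and Ldha, which makes lactate, 805 to 1118 against 223 to 255 CPM. The groups were well apart for each. Car12, a carbonic anhydrase, was 7.07 ± 0.63 higher, at 75.4, 189, 195 and 71.9 CPM in the chondrocyte libraries, with replicates 2 and 3 high as for the cartilage collagens. The exceptions were Kdm3a, a demethylase, lower at -0.45 ± 0.08, and Bnip3l, not called but lower at -0.27 without chondrocyte replicate 4, at -0.57 with library size alone and at -0.22 with at least 10 counts in every library. On the scale of the 16 libraries, proliferating cultures had 952 CPM of Pgk1 and 962 CPM of Ldha, and osteoblast cultures 352 and 223 CPM. Several of these genes have near-identical processed copies in the genome, and Aldoa was listed at only 1.38 and 0.578 CPM, so its value is uncertain.

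The core letters of the hypoxia response element, ACGTG on either strand, were found in 18 of 34 promoter windows of this list (52.9%) and in 25.0% of windows of all genes tested. The shares were 24.5% for genes higher in chondrocyte cultures by at least 1 log2 unit and 18.5% for those higher in smooth muscle cultures. The windows of P4ha2 (chr11:54100674-54100923, plus strand) and Pgk1 (chrX:106186850-106187099, plus strand) are shown for the 250 bases before the start, with these letters in capitals, since both genes were separated without overlap. The match lies 78 bases before the start in P4ha2, and 150 and 131 bases before it in Pgk1.
P4ha2: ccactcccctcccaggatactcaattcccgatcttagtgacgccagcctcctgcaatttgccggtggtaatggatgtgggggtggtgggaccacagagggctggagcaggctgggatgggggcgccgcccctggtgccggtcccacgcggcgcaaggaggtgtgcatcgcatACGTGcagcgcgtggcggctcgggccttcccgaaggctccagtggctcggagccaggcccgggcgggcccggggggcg
Pgk1: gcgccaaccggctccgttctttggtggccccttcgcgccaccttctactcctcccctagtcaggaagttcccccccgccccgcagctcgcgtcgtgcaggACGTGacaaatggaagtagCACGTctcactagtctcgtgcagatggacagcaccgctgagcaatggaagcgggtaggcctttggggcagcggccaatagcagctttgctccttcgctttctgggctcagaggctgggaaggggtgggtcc

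Interferon-stimulated genes were higher in smooth muscle cultures. Ifit1, an RNA-binding antiviral protein, had 21.5, 19.5, 21.0 and 25.2 CPM in smooth muscle libraries and 7 reads in all in chondrocyte libraries. Its difference of -8.23 ± 0.36 (edgeR adjusted p = 3.24e-10) moved to -10.29 without chondrocyte replicate 4, which held most of those reads. Isg15, a ubiquitin-like modifier, had 4.52, 3.21, 4.26 and 4.83 CPM against 0.103, 0.443, 0.503 and 0.321 CPM (-3.63 ± 0.34), and Irf1, a factor of the response, 43.5 to 53.3 against 5.86 to 9.38 CPM (-2.75 ± 0.14). Cxcl10, a chemokine, was at 1.07, 1.12, 1.31 and 1.59 CPM with 0 reads in chondrocyte libraries, at least 43.5-fold higher against a floor of 3 reads over the group. B2m, the light chain of class I antigens, was nearer, at 453 to 499 against 235 to 249 CPM (-0.97 ± 0.06). Of 22 listed, 19 were tested, 18 were higher in smooth muscle cultures, against 34.7% of all genes, and 1, Ifi44, was not called (but lower at -0.77 without chondrocyte replicate 4 and also with library size alone), with a median of -2.75. Of the 22, 11 had a mean under 1 CPM in chondrocyte and 3 in smooth muscle libraries. Some, such as Cxcl10 and Ifit1, passed the filter only through the smooth muscle libraries, which limits what the count and median show. On the scale of the 16 libraries proliferating cultures had 4.81 CPM of Isg15 and 133 CPM of Bst2, levels near or above the smooth muscle cultures, but 17 CPM of Irf1 and 249 CPM of B2m, nearer to the chondrocyte cultures.

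The letters of the interferon-stimulated response element, GAAA and GAAA separated by any 2 bases, on either strand, were found in 8 of 20 promoter windows of the tested members (40%) and in 2.96% of windows of all genes tested, and in 4.03% of windows of genes higher in smooth muscle cultures by at least 1 log2 unit. The windows of Ifit1 (chr19:34640639-34640888, plus strand), Isg15 (chr4:156200819-156201068, minus strand) and Cxcl10 (chr5:92348890-92349139, minus strand) are shown because these genes carry the difference and the element together. Capitals mark the matches in the 250 bases before the start, 2 in Ifit1, 3 that overlap in Isg15 and 1 in Cxcl10.
Ifit1: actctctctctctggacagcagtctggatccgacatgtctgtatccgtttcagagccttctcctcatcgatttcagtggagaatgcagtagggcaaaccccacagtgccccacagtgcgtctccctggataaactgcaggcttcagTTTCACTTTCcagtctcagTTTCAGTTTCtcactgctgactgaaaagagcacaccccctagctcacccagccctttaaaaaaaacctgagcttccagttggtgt
Isg15: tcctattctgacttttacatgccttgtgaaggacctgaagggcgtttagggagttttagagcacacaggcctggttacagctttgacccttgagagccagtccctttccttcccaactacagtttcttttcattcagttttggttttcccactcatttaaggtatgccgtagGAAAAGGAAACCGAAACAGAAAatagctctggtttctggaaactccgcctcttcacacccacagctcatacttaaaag
Cxcl10: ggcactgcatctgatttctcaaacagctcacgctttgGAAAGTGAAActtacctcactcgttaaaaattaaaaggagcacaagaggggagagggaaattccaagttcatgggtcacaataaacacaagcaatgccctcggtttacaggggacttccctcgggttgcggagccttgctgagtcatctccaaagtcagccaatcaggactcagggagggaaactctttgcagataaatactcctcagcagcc

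Genes of the neural crest and of facial patterning separated the groups in both directions. Crabp1, which binds retinoic acid and marks migrating crest (chromosome 9, 54764748 to 54773110, plus strand), had 639.8, 645, 712 and 815 CPM in smooth muscle and 0.547, 1.24, 1.16 and 0.963 CPM in chondrocyte libraries. The difference was -9.51 ± 0.17 with an edgeR adjusted p of 1.05e-13, and proliferating cultures held 2527 CPM on the scale of the 16 libraries. Tfap2a, a crest factor, was at 137 to 156 against 36.3 to 41.3 CPM (-1.93 ± 0.07), Nr2f1, an orphan receptor, at 184 to 220.5 against 28.7 to 32.7 CPM (-2.65 ± 0.08), and Twist1, a mesenchyme factor, at -0.68 ± 0.11. Snai2 (slug) was higher in chondrocyte cultures by 0.88 ± 0.06, and Cdh6, a cadherin of early crest, stood at 9.75 to 12.1 CPM with 2 reads in smooth muscle libraries. Of 15 crest genes tested, 7 were higher in chondrocyte and 8 in smooth muscle cultures (33.0% and 34.7% of all genes), with a median of -0.68, and Sox10 and Foxd3 had at most 1 read over the 8 libraries. Among homeobox genes, Dlx5, which acts in bone and the lower jaw, had 47.3, 52.7, 57.5 and 39.7 CPM against 0.276, 0.121, 0 and 0.794 CPM (7.37 ± 0.44, or 8.52 without smooth muscle replicate 4), with Dlx6, its neighbour, and Alx4, a factor of the frontonasal skeleton, also higher. Prrx1, a factor of skeletal mesenchyme, was at 666 to 919 against 2389 to 2555 CPM (-1.63 ± 0.09), and Meis2 and Lhx8 fell by 1.94 and 1.75 log2 units. Of 18 tested, 7 were higher and 10 lower in chondrocyte cultures (33.0% and 34.7% of all genes), with a median of -0.42. With at least 10 counts in every library, 3 of 13 were higher and 10 lower (33.5% and 35.4%), with a median of -0.98. Of 20 Hox genes, 19 had 0 reads in all 8 libraries.

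Genes of Wnt and FGF signalling differed in both directions. Wif1, a secreted Wnt inhibitor, was at 77.2, 69.3, 56.5 and 37.4 CPM in chondrocyte libraries and 0 reads in smooth muscle libraries, at least 2479-fold higher against a floor of 3 reads over the group. Frzb, another secreted Wnt inhibitor, was 3.56 ± 0.43 higher, while the inhibitors Sfrp1 and Dkk2 were lower at 14.6 to 23.9 against 405 to 496 CPM (-4.52 ± 0.16) and 1.16 to 2.09 against 69.1 to 74.4 CPM (-5.51 ± 0.13). Axin2, a general Wnt target, was at 0.620 to 1.85 and 0.926 to 1.90 CPM and was not called. Of 22 Wnt genes tested, 12 were higher and 7 lower (33.0% and 34.7% of all genes), with a median of 0.86. With at least 10 counts in every library, 14 were tested, 6 were higher and 6 lower (33.5% and 35.4%), and the median turned to -0.13. In FGF signalling, the feedback inhibitors Il17rd, Spry2 and Spry4 were lower in chondrocyte cultures, with Il17rd at 1.05 to 2.57 against 54.9 to 64.8 CPM (-5.12 ± 0.17), Spry2 at -2.18 ± 0.11 and Spry4 at -2.10 ± 0.13. Dusp4, an ERK phosphatase, was 2.78 ± 0.29 higher, at 31.8, 14.3, 13.7 and 16.2 CPM in the chondrocyte libraries. Of 20 tested, 4 were higher and 12 lower (33.0% and 34.7% of all genes), with a median of -0.43.

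Genes of the cell cycle were called higher in chondrocyte cultures more often than lower, mostly by under 1 log2 unit and depending on the scale. Mki67, read in all dividing cells, had 148, 142, 153 and 95.6 CPM in chondrocyte and 115, 108, 92.8 and 95.2 CPM in smooth muscle libraries. The groups overlapped, and the difference of 0.39 ± 0.14 (edgeR adjusted p = 0.0287) was no longer called without chondrocyte replicates 1, 2 or 3, without smooth muscle replicates 3 or 4, with no filter (0.098) or with library size alone (0.874). Top2a had 172, 189, 206 and 115 CPM against 150, 131, 133 and 121 CPM and was not called (0.35 ± 0.16, adjusted p = 0.084), but was called at 0.52 without chondrocyte replicate 4 and turned to -0.02 with library size alone. Top2a was also called with a replicate block (0.32, edgeR adjusted p = 0.0233) and by DESeq2 (0.37, adjusted p = 0.0165). Chondrocyte replicate 4 was the lowest of its group for both, and for Ccnb1, the mitotic cyclin, at 60.3, 59.5, 58.4 and 39.6 CPM. Of 27 mitosis genes, 16 were called higher in chondrocyte cultures, against 33.0% of all genes, with a median of 0.40 and none by 1 log2 unit or more. Without chondrocyte replicate 4, 22 were higher (33.5% of all genes), with no filter 10 (21.4%), and with library size alone 2 were higher and 2 lower (18.8% and 54.8%). Of 26 replication genes, 15 were higher and 2 lower (33.0% and 34.7% of all genes), with a median of 0.44, and with library size alone 7 were higher and 4 lower (18.8% and 54.8%). Rrm2, a subunit of the enzyme that makes deoxynucleotides, was at 142, 136, 155 and 103 against 26.4, 28.5, 24.4 and 23.4 CPM (2.38 ± 0.12). Past 1 log2 unit were also Ccne2 (cyclin E2) at 14.8 to 24.4 against 4.84 to 6.21 CPM (1.93 ± 0.15), and Cdc6 (1.07 ± 0.18) and Cdc45 (1.02 ± 0.14), which load and start replication forks. On the scale of the 16 libraries, Mki67 had 386 CPM in proliferating and 10.5 CPM in osteoblast cultures, above and below both groups, while Ccne2 had 27.9 CPM in proliferating and 6.31 CPM in osteoblast cultures, the second near its smooth muscle level.

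Among single genes, the widest differences without overlap included Anxa8, a membrane-binding annexin, at 1025, 1057, 1232 and 1322 CPM against 1.97, 1.12, 2.29 and 1.46 CPM (9.41 ± 0.18), and Col7a1, the anchoring fibril collagen of skin, at 177 to 269.5 against 0.298 to 0.852 CPM (8.54 ± 0.23). In the other direction were Ccn3, a matricellular protein, at 0.487 to 2.65 against 139 to 184 CPM (-6.94 ± 0.30), Bmp3, a BMP that opposes the others, at 0.137, 1.15, 0.620 and 2.13 against 118, 123, 124 and 79.8 CPM (-6.83 ± 0.44), and Lpl (lipoprotein lipase) at 0.398 to 1.3 against 53.5 to 67.8 CPM (-6.30 ± 0.21). Bmp3 moved to -7.52 without chondrocyte replicate 4. Some tested genes had at most 3 reads over all libraries of one group and at least 10 reads in every library of the other. Without predicted, clone-named and mitochondrial genes, pseudogenes named as such and genes without a symbol, these numbered 84 for chondrocyte and 68 for smooth muscle cultures. The counts are therefore not over all genes. C1qtnf3 (cartducin), a secreted protein of growth cartilage, had 376, 703, 573 and 581 CPM in chondrocyte libraries and 0 reads in smooth muscle libraries, at least 22409.7-fold higher against a floor of 3 reads over the group. F13a1, a transglutaminase subunit, was at 38.1, 146, 132 and 99.5 CPM with 0 reads in smooth muscle libraries, at least 4107-fold higher. Lgals7, a galectin, was at 5.02 to 6.52 CPM in smooth muscle libraries with 0 reads in chondrocyte libraries, at least 203-fold higher, and Tac1, which encodes substance P, was at 3.94 to 5.21 CPM with 1 read in chondrocyte libraries.

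The chondrocyte libraries varied more among themselves than the smooth muscle libraries, and of the lists the cartilage matrix genes varied most. Over 11978 genes with a mean of at least 1 CPM in both groups, the median SD was 9.40% of the mean in chondrocyte and 7.82% in smooth muscle libraries. For the 11 cartilage matrix genes of at least 1 CPM it was 61.5% in chondrocyte libraries and 15.1% in smooth muscle libraries. Relative to their group mean these genes had a median of -1.08 and -0.78 on the log2 scale in chondrocyte replicates 1 and 4, and 0.48 and 0.46 in replicates 2 and 3. Other lists had another order. Mitosis genes had a median of -0.56 in replicate 4 and of 0.10 to 0.19 in the other 3, and glucocorticoid targets had -0.34 in replicate 1 and 0.28 in replicate 4. TGF-beta targets had medians from -0.04 to 0.01 in the chondrocyte libraries. In cultures that can hold several kinds of cell, fewer cells of a kind and less RNA per cell cannot be told apart.

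**Figure D4:**
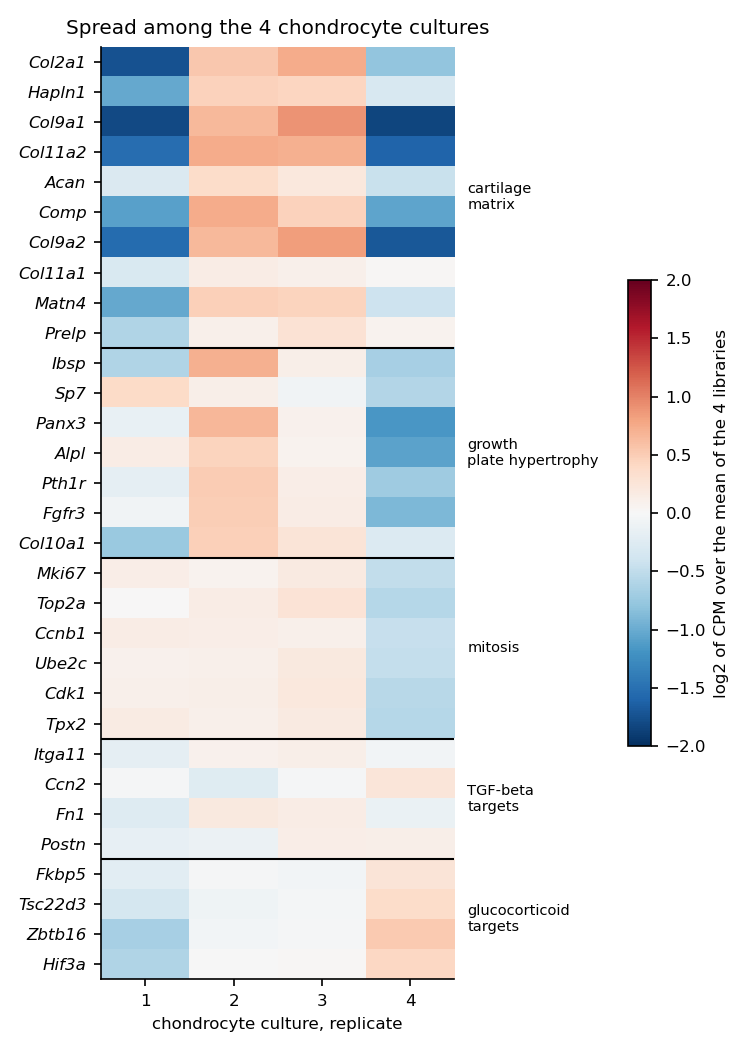
Log2 of the CPM in each chondrocyte library over the mean of the 4 libraries (colour) for genes of 5 lists (rows) and replicates 1 to 4 (columns). Most cartilage genes are low in replicates 1 and 4 and high in replicates 2 and 3, while mitosis genes are low in replicate 4 alone.

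The levels in proliferating cultures were set beside both groups gene by gene, with no test. Of the 1732 genes higher in chondrocyte cultures by at least 1 log2 unit, the proliferating mean was nearer to the smooth muscle mean for 1211 (69.9%). Of the 2178 genes higher in smooth muscle cultures, it was nearer to the chondrocyte mean for 1479 (67.9%), so that in both sets it lay mostly on the low side. Single genes lay on either side. Col2a1 and Ibsp were at 0.0195 and 0 CPM in proliferating cultures, but Spp1 (osteopontin), at 1528, 2378, 2438 and 2777 CPM in chondrocyte and 766, 670.4, 769 and 741 CPM in smooth muscle libraries (1.63 ± 0.16), was at 2311 CPM there. Of the contractile genes, Mylk was at 3.36 CPM and Itga8 at 16.3 CPM. Crabp1 and Dkk2 were at 2527 and 818 CPM in proliferating cultures, above both. Osteoblast means lay nearer to smooth muscle cultures for 64.7% of the genes higher in chondrocyte cultures and for 63.3% of those higher in smooth muscle cultures. Of the contractile genes, osteoblast libraries were at 3183 to 4728 CPM of Acta2, 167 to 299 CPM of Mylk and 629 to 1324 CPM of Itga8, beside smooth muscle means of 3695, 249.8 and 686 CPM. Cnn1 and Myh11 were low there as well, with osteoblast means of 7.81 and 2.06 CPM, and Kcnmb1 and Pln were at 0. Osteoblast libraries were uneven for Col2a1, at 40 to 881 CPM, and for the bone gene Sp7, at 0.755 to 51.5 CPM.

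**Figure D5:**
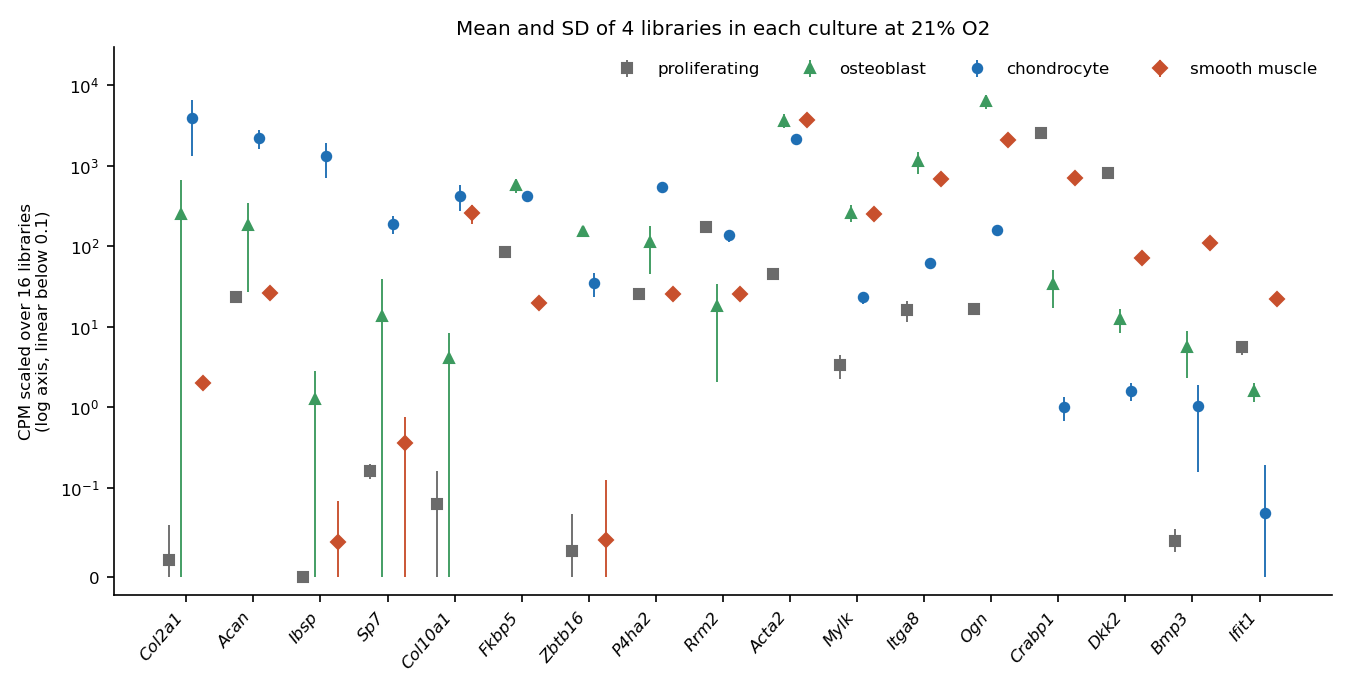
Mean (symbol) and SD (bar) of the 4 libraries in each of the 4 kinds of culture at 21% O2 for 17 genes, in CPM scaled over 16 libraries (vertical log axis, linear below 0.1). Chondrocyte cultures are highest for Col2a1, Acan, Ibsp and Sp7, and proliferating cultures are highest for Crabp1 and Dkk2.

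Of the neuronal, tendon, endothelial, macrophage and epithelial lists, the neuronal and tendon lists had the highest sums of CPM in both groups, and both sums were higher in chondrocyte libraries. Of 9 neuronal markers, 3 were tested, Tubb3, Stmn2 and Map2, and these 3 were higher in chondrocyte cultures, against 33.0% of all genes, with Stmn2, a microtubule regulator, at 50.3, 41.5, 42.3 and 43.6 against 0.621, 0.454, 0.721 and 0.397 CPM (6.34 ± 0.15) and Tubb3 (neuronal tubulin) at 46.2 to 81.8 against 3.51 to 5.21 CPM (4.05 ± 0.21). The summed level of the 9 ran from 249 to 362 CPM in chondrocyte and from 13.7 to 28.7 CPM in smooth muscle libraries. Map2 alone made up most of it, with means of 194 CPM in chondrocyte and 13.6 CPM in smooth muscle libraries. Of the defining neuronal genes, Elavl3 had 0 reads in the 8 libraries, Isl1 had 1 and Snap25 had 2 in chondrocyte and 1 in smooth muscle libraries. Endothelial markers summed to 14.9 to 27.0 CPM in chondrocyte and 9.60 to 11.9 CPM in smooth muscle libraries, with Tie1 and Cldn5 at 0 reads, and of 4 tested, Pecam1, Vwf and Erg were higher in chondrocyte and Tek in smooth muscle cultures (33.0% and 34.7% of all genes). Tek, an angiopoietin receptor, was at 0.0342 to 0.266 against 1.55 to 1.79 CPM (-4.19 ± 0.50, and -5.33 without chondrocyte replicate 2). Vwf was no longer called without chondrocyte replicate 2 (edgeR adjusted p = 0.061), without smooth muscle replicates 2 (0.052) or 3 (0.055), or by limma-voom (0.073). Macrophage markers summed to at most 4.69 CPM in any of the 8 libraries, with 1 of 3 tested, Cd14, higher in smooth muscle cultures, against 34.7% of all genes. Csf1r, not called, was called higher in chondrocyte cultures without chondrocyte replicate 4 (0.99), by limma-voom, with DESeq2 size factors and with at least 10 counts in every library (0.79). Of the skeletal muscle markers, Myod1, Myog and Myf5 were at 0 reads, while the 2 tested, Acta1 (skeletal actin) at 2.12 to 4.14 against 10.1 to 12.7 CPM (-2.02 ± 0.19) and Tnnt3 (a troponin) at 0.274 to 0.620 against 0.917 to 1.59 CPM (-1.36 ± 0.36), were higher in smooth muscle cultures, against 34.7% of all genes. Epithelial markers summed to 8.70 to 14.7 CPM and 1.42 to 2.39 CPM, led by Krt14 and Krt19 in chondrocyte cultures. Of 3 tested these 2 were higher there and Cdh1 (E-cadherin) lower, at 0.271 to 0.513 against 0.529 to 1.07 CPM (-1.29 ± 0.39), beside 33.0% and 34.7% of all genes. Epcam, under the filter with 1 read in chondrocyte and 48 in smooth muscle libraries, was called lower as well with no filter, by DESeq2 and when 16 libraries shared the dispersion. Tendon genes summed to 1993 to 2165 CPM in chondrocyte and 135 to 176 CPM in smooth muscle libraries, and Fmod, also counted above among the small proteoglycans, made up most of the chondrocyte sum with a mean of 1995 CPM. Of 5 tested, Fmod and Mkx were higher in chondrocyte cultures and Egr1 and Egr2 lower (33.0% and 34.7% of all genes), and Tnmd, which defines tendon, was at 0 reads. Scx (scleraxis) was not called, but was called lower in chondrocyte cultures with library size alone (-0.48). The part of other cells in the differences above was not tested.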

How the data were processed

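PolyA-selected RNA of O9-1 cultures was sequenced from a stranded kit, per the labels' protocols. The submitters' processing notes name HISAT2 2.0.5, StringTie 1.3.3b, featureCounts 1.5.0-p3 and the mm10 build, without their roles, and the strand setting of the counting is not given in the sources used here. The authors deposited raw counts per gene for 28 libraries, and 8 of them enter the comparison. Without strand, reads of overlapping and antisense genes cannot be told apart.

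Counts were scaled by TMM, genes were kept with filterByExpr, and groups were compared with edgeR 4.0.16 (R 4.3.3) by robust quasi-likelihood tests with Benjamini-Hochberg adjustment and a threshold of 0.05. The log2 fold change is chondrocyte over smooth muscle, and its SE is its size divided by the square root of F. CPM values use TMM over the 8 libraries, and levels that include proliferating or osteoblast cultures use TMM over 16 libraries. The edgeR test was tested on simulated data, with counts drawn for the same genes and libraries and known fold changes. There, equal numbers of genes were raised and lowered, far fewer than were called here, so it could not test the choice of scale. Intervals of depth are not given, since 25611647 to 32378123 counts per library make counting error small except for genes with a few reads, whose reads are stated. Alternatives were another dispersion, other scalings and filters, limma-voom (limma 3.58.1), DESeq2 1.42.0, a replicate block, a test against a log2 fold change of 1 and each library left out.

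Replicate numbers are shared by the groups in the labels. After the group means were removed, the correlation of chondrocyte with smooth muscle libraries sharing a number ran from -0.045 to 0.025, so the numbers were not taken to pair the libraries.

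The named genes are the 8 called genes with the largest fold changes each way among those with a mean of at least 10 counts in both groups and no overlap. Added are the 6 each way with at most 3 counts in one group, the 6 each way with the highest mean, the 3 called members of each list with the largest fold change and a set of marker genes. Outside the lists and marker genes, predicted, clone-named and mitochondrial genes, pseudogenes named as such and genes without a symbol were passed over. Other members of the lists were named after their values were seen, and the 34 lists, their members and the motifs were chosen with earlier results of these data known. Promoter windows come from RefSeq (GRCm38.p6), and 10271 of 14618 tested symbols matched. Some members of the lists are not reported here.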

Additional observations from a re-analysis of the deposited data

Results flagged for a closer look

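In groups of 4 libraries, 289 sets of values of the genes named above were examined for a library far from the other 3, and 18 were found. Chance alone flags about 1 in 20 such groups. Of the 18, 11 lay in smooth muscle replicate 4. That library was high for Alpl at 5.53 CPM (the others 2.79 to 3.05), Fmod at 63.8 (33.6 to 37.1), Map2 at 24.3 (9.23 to 10.4), Nr2f1 at 220.5 (184 to 188) and Twist1 at 118 (91.1 to 95.3). It was low for Bmp3 at 79.8 CPM (118 to 124), Col10a1 at 153 (282 to 307), Grem1 at 486 (787 to 812), Irf1 at 43.5 (52.5 to 53.3), Itga8 at 594 (707 to 715) and Mmp13 at 4.67 (17.9 to 19.0).

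Chondrocyte replicate 4 was low for Actg2 at 10.1 CPM (26.0 to 26.8), Ccnb1 at 39.6 (58.4 to 60.3) and Cdc6 at 4.97 (7.80 to 8.28), and high for Klf4 at 194 (141 to 145) and Vcl at 653 (495 to 518). Chondrocyte replicate 3 stood apart for Chst3 at 33.8 CPM (37.3 to 37.8), and chondrocyte replicate 1 for Dusp4 at 31.8 (13.7 to 16.2).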

How the results depend on the processing

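The number of genes called ran from 9415 to 10013 when 1 library was left out, with 4614 to 4995 higher in chondrocyte cultures, 4726 to 5018 higher in smooth muscle cultures and 3901 to 4048 past 1 log2 unit. With a replicate block 9559 genes were called, 9477 of them also called without it. With library size alone, 2753 genes were higher in chondrocyte and 8007 in smooth muscle cultures. That scale also turned Actg2 (-0.0204), Runx2 (-0.0527) and Top2a (-0.0155), and the medians of chondrogenic factors (-0.0607), YAP targets (-0.34), basement membrane (-0.26) and proteases (-0.10). With at least 10 counts required in every library, the medians of chondrogenic factors (-0.0738), YAP targets (-0.00342), basement membrane (-0.0768) and Wnt genes (-0.13) turned. Under that filter 10 of 13 chondrogenic factors, 19 of 20 basement membrane genes and 14 of 22 Wnt genes were tested, but all 20 YAP targets were. Adipogenic and epithelial medians turned with no filter (0.32 and -1.29) and with DESeq2 (0.35 and -1.28), where more members were tested, and over the libraries left out the median of YAP targets ran from -0.0139, without smooth muscle replicate 3, to 0.0638, without chondrocyte replicate 4. The causes were not tested. A test against a log2 fold change of 1 called 2740 genes. Medium, time and culture format differ together, the identity of replicates as separate cultures is not given, and genes with a few reads in 1 group have fold changes set by those reads.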

Other observations

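Of 20 sterol synthesis genes, 10 were higher in smooth muscle and 4 in chondrocyte cultures, beside 34.7% and 33.0% of all genes, with a median of -0.27. With library size alone 16 were higher in smooth muscle and 2 in chondrocyte cultures, beside 54.8% and 18.8%, with a median of -0.64. Of 11 adipogenic genes tested, 5 were higher in each group, beside the same 33.0% and 34.7%, with a median of -0.15 that turned to 0.32 with no filter and to 0.35 with DESeq2. Gene classes were uneven: of 314 long intergenic RNAs tested, 49 were higher in chondrocyte and 128 in smooth muscle cultures, and of 573 antisense genes 51 and 186. Of 648 processed pseudogenes, whose reads can come from their parent genes, 170 were higher in chondrocyte and 79 in smooth muscle cultures, beside 4470 and 4444 of 12401 protein-coding genes. Mitochondrial genes took 0.649% to 0.776% of counts in chondrocyte libraries and 0.995% to 1.03% in smooth muscle libraries.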
